A study of Homo sapiens with 12 samples.

Results

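Collagens, laminins, integrins, matrix metalloproteinases, ADAMTS proteases and TIMPs build, anchor and degrade the extracellular matrix. The 64 genes described here had a symbol beginning with COL and a digit, LAMA, LAMB, LAMC, ITGA, ITGB, MMP, ADAMTS or TIMP and an N6-methyladenosine (m6A) peak in at least 1 of 6 peak lists. They were 64 of the 10536 genes with any peak. The same prefixes match 152 genes of the RefSeq table, antisense genes left out, so most genes of these families had no peak. By family, 20 of 49 collagens had a peak, 6 of 13 laminins, 14 of 33 integrin-named genes, 6 of 24 matrix metalloproteinases, 15 of 29 ADAMTS and ADAMTS-like genes and 3 of 4 TIMPs. The antisense genes ADAMTS9-AS2, ITGB2-AS1 and MMP24OS had peaks and were left out. The prefixes also took in the pseudogene COL6A4P2, the integrin-like ITGBL1 and ITGB1BP1, which binds an integrin tail and is not an integrin.

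The cells were 143B, an established human osteosarcoma line, transfected with RNAiMAX and either siRNA to ALKBH5, the m6A demethylase, or scrambled siRNA, and harvested at 48 h. RNA fragments bound by an anti-m6A antibody were sequenced, giving 3 knockdown and 3 scrambled libraries. Per the protocol in the labels, replicates 1 and 3 used polyadenylated RNA and different antibodies, and replicate 2 used total RNA and a kit with a further antibody. A same-numbered knockdown and scrambled library therefore form a pair, and since no label states that the numbers were separate cultures, p-values measure only the spread between these libraries, which may be technical.

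Fibrillar and network collagens are secreted as triple helices, and their chains are modified and crosslinked before they bear load. Laminins are the cross-shaped proteins of basement membranes, and integrins are the paired receptors through which cells hold both. Metalloproteinases and ADAMTS enzymes cut matrix proteins, and TIMPs inhibit them. In bone the matrix is mostly type I collagen, which osteoblasts secrete. m6A is deposited on messenger RNA mainly in long internal exons and near stop codons.

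A gene counted as called if at least 1 peak of the library's list carried its gene number, and its covered length was the exon length under its peaks. The lists ran from 5677 to 18724 peaks, with replicate 2 the shortest for both siRNAs, and their depth is unknown because they hold peaks without reads. In knockdown replicates 1, 2 and 3 the peaks covered 5746, 1084 and 7855 kb, against 3661, 961.2 and 7854 kb in scrambled replicates 1, 2 and 3. The knockdown list was thus 1.57, 1.13 and 1.00 times as long within the pairs, and longer coverage of a gene in replicate 1 has to be read against that. ALKBH5 itself had no peak in a knockdown library, against 1, 0 and 1 peaks in scrambled replicates 1, 2 and 3. Since the 6 inputs were not analysed here, more methylated RNA and more RNA of a gene cannot be told apart. Of the osteoblast and mesenchymal markers, 5 of 10 had a peak, among them RUNX2, TWIST1 and COL1A1, and SP7, ALPL, COL1A2, IBSP and VIM had none in any library. Of markers of other cell types, 1 of 6 epithelial (CLDN4), 1 of 6 blood (CD14) and 0 of 5 endothelial genes had a peak. CLDN4 covered 839, 0 and 1137 nt in the knockdown, against 240, 0 and 658 nt in the scrambled libraries. CD14 covered 504, 0 and 918 nt in the knockdown, against 0, 0 and 889 nt, and its part or that of CLDN4 in the results was not tested.

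The 64 genes carried 396 peaks, which joined into 136 regions where peaks of any library overlapped on the same strand. The knockdown libraries held 81, 29 and 101 of these peaks in replicates 1, 2 and 3, and the scrambled libraries held 64, 19 and 102. Together they covered 24.3, 5.71 and 40.3 kb in the knockdown libraries, against 14.2, 3.58 and 34.5 kb in the scrambled libraries. As a share of all covered length this was 0.423, 0.526 and 0.513% in the knockdown and 0.388, 0.372 and 0.440% in the scrambled libraries. The matrix genes thus took a larger share in the knockdown library of each pair, by the smallest margin in replicate 1. This did not hold without the collagens. The other families covered 13.9, 2.55 and 24.3 kb in the knockdown, against 9.09, 2.56 and 22.7 kb in the scrambled libraries. Their share of all covered length was thus smaller in the knockdown of replicates 1 and 2 and larger in replicate 3.

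Most of the genes carried few peaks. At most 1 peak was listed in any library for 22 of them, at most 2 for 26 and at most 3 for 12, and the other 4 reached 4, 4, 5 and 9. COL6A3 held the highest number, 9 peaks in knockdown replicate 1. Peaks lay in 1 region for 20 genes and in 2 regions for 29. Peak length ran from 60 to 1529 nt with a median of 240.5 nt, against 241 nt over all peaks.

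Peaks that joined exons across a splice junction made up 18.7% of the peaks of these genes and 13.0% of all peaks. The share was 23.9% in collagens (38 of 159), 31.2% in laminins (10 of 32) and 32.3% in metalloproteinases (10 of 31). It was 9.59% in integrins (7 of 73), 10.3% in ADAMTS and ADAMTS-like genes (9 of 87) and 0 of 14 in TIMPs. A COL6A2 peak of scrambled replicate 1 spanned the most exon blocks, 7, in only 361 nt.

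**Figure D1:**
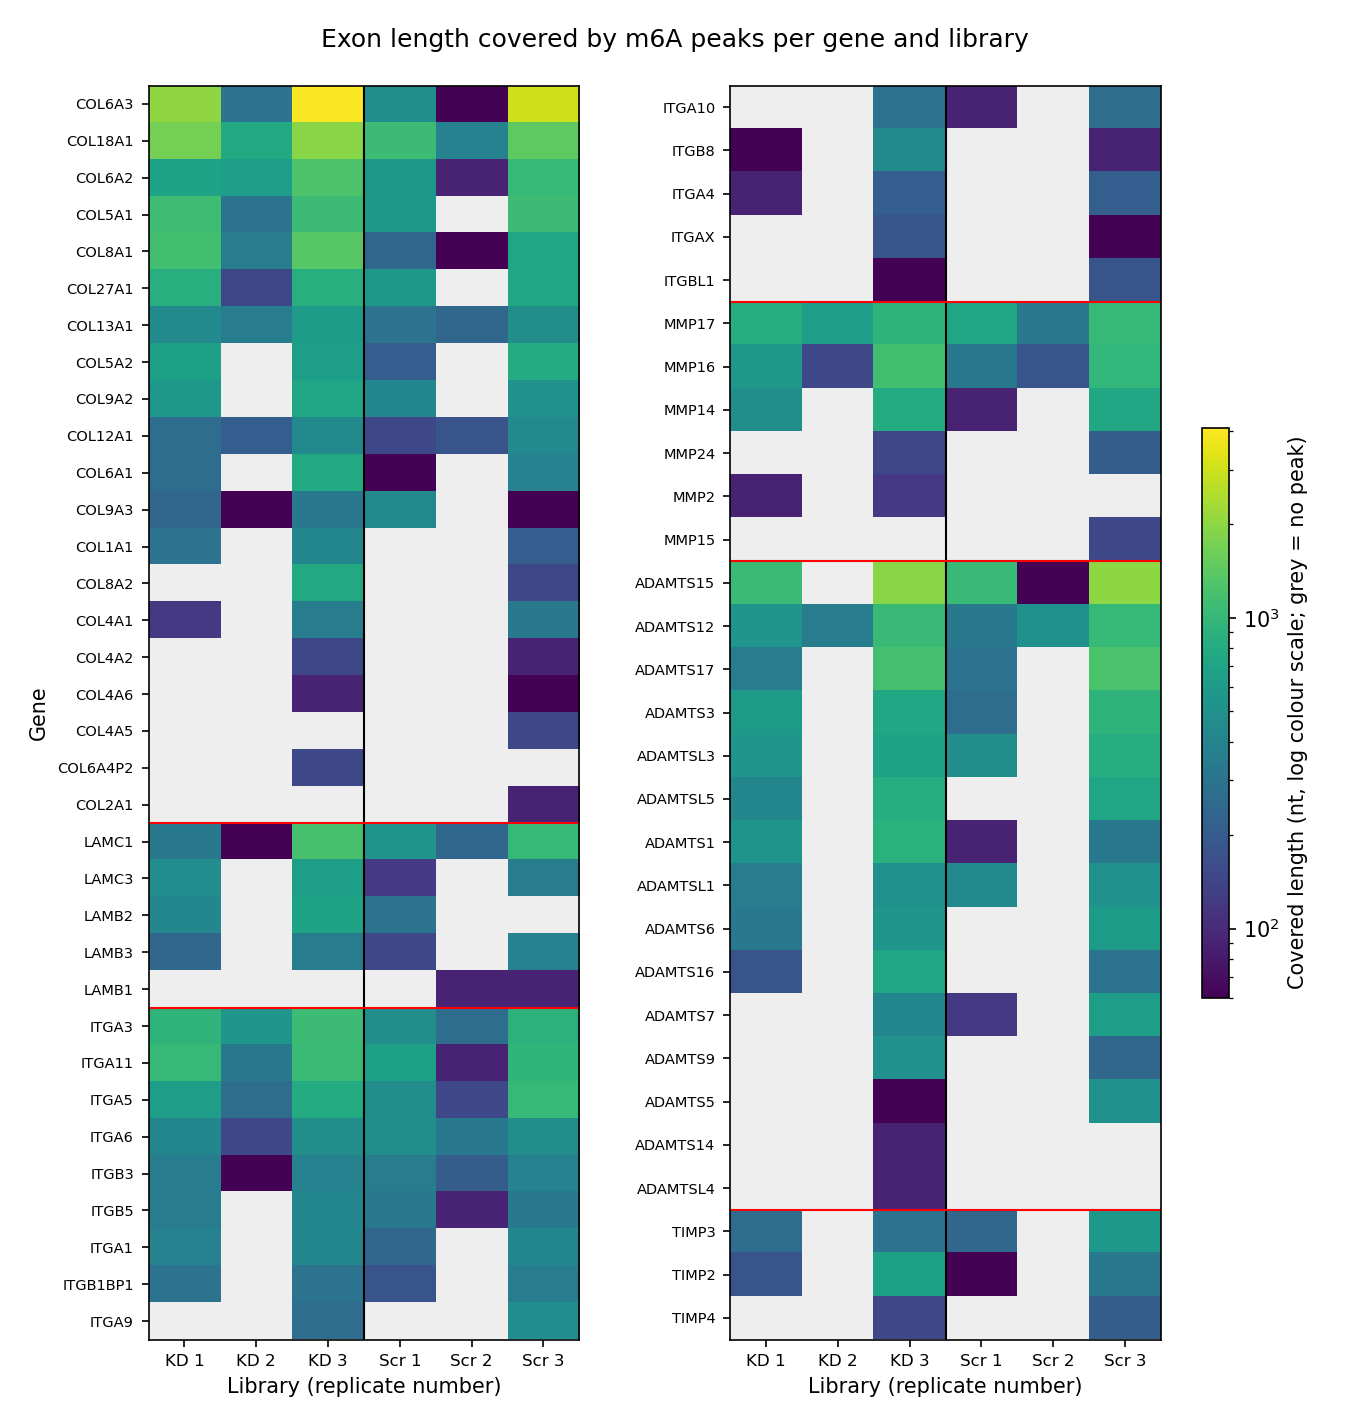
Exon length covered by m6A peaks in nucleotides (log colour scale, grey where a library listed no peak) for the matrix genes shown (rows, families parted by red lines, from collagens to TIMPs) in each library (columns, KD for ALKBH5 knockdown, Scr for scrambled siRNA, with the replicate number). The replicate 2 columns are mostly grey, and COL6A3, at 4021 nt in knockdown replicate 3, has the brightest cell.

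Genes called in every library numbered 15 of 64, or 23.4%, beside 23.3% of all genes with a peak. They were the collagens COL6A2, COL6A3, COL8A1, COL12A1, COL13A1 and COL18A1, the integrins ITGA3, ITGA5, ITGA6, ITGA11 and ITGB3, the laminin LAMC1, the metalloproteinases MMP16 and MMP17, and ADAMTS12. Those called in libraries of replicate 3 alone numbered 16 (25.0%), beside 15.8% of all genes with a peak. They included COL4A2, COL4A6, ITGA9, ITGAX, MMP24 and TIMP4. Per library, 45, 18 and 60 of the 64 genes were called in knockdown replicates 1, 2 and 3, against 39, 18 and 59 in the scrambled libraries.

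For 41 of the 64 genes, equal numbers of knockdown and scrambled libraries made a call. More knockdown than scrambled libraries called 15 of the 64 genes (23.4%), beside 26.1% of all genes with a peak, and fewer knockdown libraries called 8 (12.5%), beside 17.1% of all genes. Both counts depend on single libraries, since 2 libraries against 3, compared by share, leave few ties. They were 41 and 6 without knockdown replicate 2, 12 and 34 without knockdown replicate 3, and 25 and 24 without knockdown replicate 1. Without scrambled replicates 1, 2 or 3 they were 31 and 18, 12 and 34, and 41 and 5, so the direction turned in 2 of the 6 cases. With a library left out, the shares of all genes were not computed. The 15 comprised 6 collagens (COL1A1, COL4A1, COL5A1, COL6A4P2, COL9A3 and COL27A1), 5 ADAMTS or ADAMTS-like genes, the integrins ITGA4 and ITGB8, the laminin LAMB2 and MMP2. The 8 were ADAMTS7, ADAMTS15, COL2A1, COL4A5, ITGA10, ITGB5, LAMB1 and MMP15. No gene of the 64 was called in all knockdown and no scrambled libraries (0.114% of all genes were) or the reverse (0.0285%).

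A difference of at least 2 libraries was seen for MMP2 alone in the knockdown direction (3.02% of all genes) and for LAMB1 alone in the opposite one (1.04%). MMP2, which degrades the collagen of basement membranes, had 1 peak each in knockdown replicates 1 and 3 and none elsewhere. These lay in separate regions on chromosome 16 (hg19, plus strand), 90 nt at 55513111 to 55513200 in replicate 1 and 121 nt at 55539512 to 55539632 in replicate 3, so no MMP2 site was shared. LAMB1, a laminin beta chain, had no peak in the knockdown libraries and 0, 1 and 1 in scrambled replicates 1, 2 and 3, each of 91 nt. Ranked by score within its list, with 100 for the best, the LAMB1 peak ranked at 42.0 in scrambled replicate 2 and at 3.24 in scrambled replicate 3. Such ranks hold within a list, and lists of different length set no common scale.

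Within pairs, gains and losses of calls were few. In replicate 1, 8 of the 64 genes were gained, meaning that only the knockdown library of the pair called them, and 2 were lost, beside 16.9% and 5% of all genes. In replicate 2, 3 were gained and 3 were lost, beside 7.99% and 7.35%. The gained genes of replicate 2 were the collagens COL5A1, COL9A3 and COL27A1, and the lost ones were ADAMTS15, ITGB5 and LAMB1. In replicate 3, 5 were gained and 4 were lost, beside 6.28% and 7.83%.

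Covered length differed more than the calls did, and mainly among collagens. The 20 collagens covered 10.4, 3.15 and 16.0 kb in knockdown replicates 1, 2 and 3, against 5.11, 1.02 and 11.8 kb in scrambled replicates 1, 2 and 3. The ratios of knockdown over scrambled within pairs were 2.04, 3.09 and 1.35, each above the ratio of the whole lists. The ratios of the 6 metalloproteinases, 1.74, 1.53 and 1.01, were above those of the whole lists as well, and in no further family was this so in all 3 pairs. The mean log2 ratio over the pairs was 1.03 ± 0.59 (SD, 3 pairs), and 0.76 ± 0.60 when each library's collagen length was taken as a share of all its covered length. As such a share, collagens took 0.181, 0.291 and 0.203% in the knockdown libraries, against 0.140, 0.106 and 0.150% in the scrambled libraries. The groups did not overlap in that share, which describes 20 genes picked by name, 1 of 6 families. The collagen summary was not planned before the values were seen, and the share was not tested. Replicate 2 contributed the widest gap, with a log2 ratio of shares of 1.45, against 0.38 in replicate 1 and 0.44 in replicate 3.

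**Figure D2:**
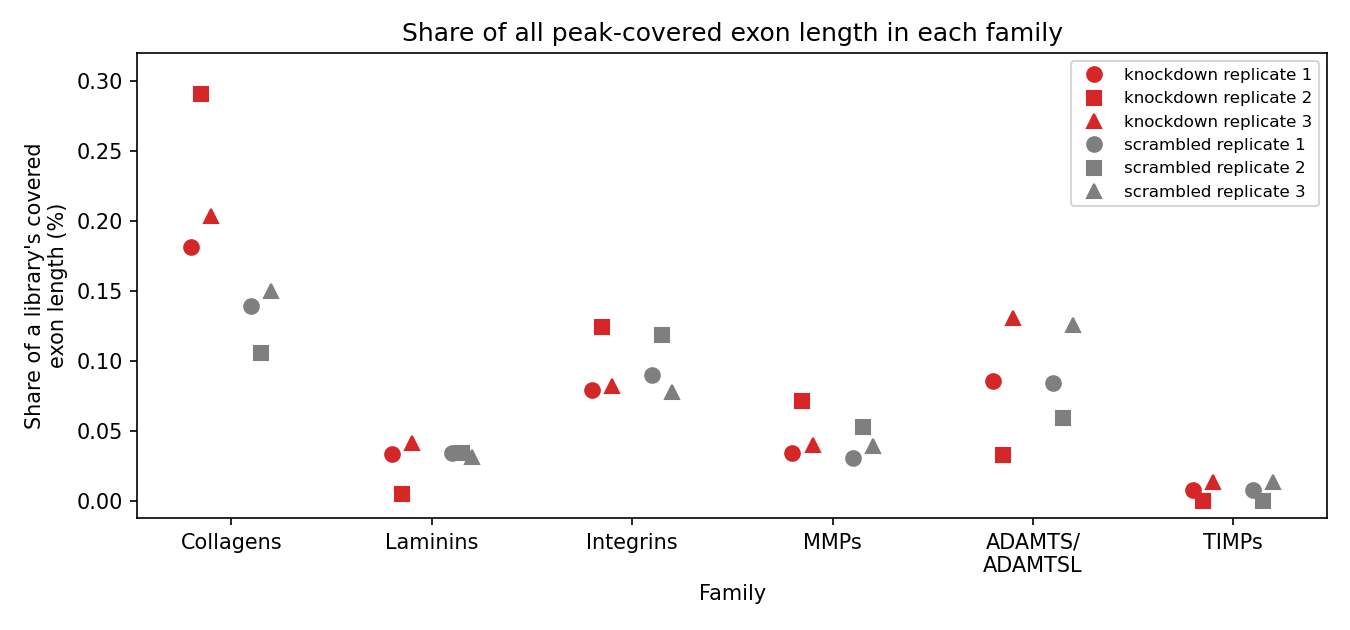
Share of each library's peak-covered exon length (percent, vertical axis) that fell in each of the 6 families (horizontal axis), with knockdown libraries in red left of scrambled libraries in grey and a marker shape for each replicate number. Collagens lie between 0.181 and 0.291% in the knockdown libraries and between 0.106 and 0.150% in the scrambled libraries, while the other families overlap.

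In the other families the shares of the knockdown and scrambled libraries overlapped. Metalloproteinases took 0.0345, 0.0719 and 0.0401% in knockdown replicates 1, 2 and 3, against 0.0311, 0.0531 and 0.0397% in the scrambled libraries. Their share was thus also higher in the knockdown of each pair, by little in replicate 3, and rested on 2 peaks in each library of replicate 2. Integrins took 0.0793, 0.125 and 0.0820% in knockdown replicates 1, 2 and 3, against 0.0901, 0.119 and 0.0783% in the scrambled libraries. ADAMTS and ADAMTS-like genes took 0.0861, 0.0333 and 0.131% in the knockdown and 0.0845, 0.0596 and 0.126% in the scrambled libraries. The laminin ratios within pairs ran from 0.18 in replicate 2 to 1.55 in replicate 1. Laminins had a single peak in knockdown replicate 2 and 2 in its scrambled partner, so that ratio rests on 3 peaks. TIMPs had no peak in either library of replicate 2.

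Single genes were compared by covered length, with a two-sided exact permutation test over the 6 libraries and Benjamini-Hochberg adjustment over all 10536 genes. The smallest p this design allows is 0.1, and every adjusted p was 1. None of the 64 genes had a covered length higher in every knockdown than in any scrambled library, beside 0.285% of all genes, and none was lower, beside 0.0285%. Without knockdown replicate 2 the first of these counts was 12, and without scrambled replicate 3 it was 5. The share of all genes was not computed with a library left out, so these 2 counts have no background. Across all 10536 genes, 0 had an unadjusted p under 0.05, as the design fixes. The next paragraphs therefore give levels within pairs, where the direction can be read but no call can be made. The permutation test takes no account of the pairs, so differences in RNA type and antibody between replicates enter its spread and the SDs below. With the pairs as a block, an exact sign-flip test can go no lower than 0.25. It gave that value for 8 of the 64 genes, those longer in the knockdown of all 3 pairs.

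In 8 of the 64 genes (12.5%) the knockdown library covered more than its partner in all 3 pairs, beside 13% of all genes with a peak, and in none did it cover less in all 3 (1.42% of all genes). The share is thus near that of all genes. The 8 were the collagens COL6A2, COL6A3, COL8A1, COL13A1, COL18A1 and COL27A1 and the integrins ITGA3 and ITGA11, and included no laminin, protease or TIMP. All except COL27A1 were called in all 6 libraries, which makes 7 of 15 such genes, beside 34.1% of all genes called in all 6. After scaling by the covered length of each list, 4 of the 64 (6.25%) were higher in all 3 pairs, beside 7.33% of all genes, namely COL6A3, COL8A1, COL18A1 and ITGA3. Among the genes called in all 6 libraries this was 4 of 15, beside 14.6%. On the same scale 3 of the 64 were lower in all pairs (ADAMTS15, ITGA6 and ITGB3), beside 6.76%.

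Among genes called in both libraries of a pair, 32 of 37 were longer in the knockdown and 4 shorter in replicate 1, beside 81.9% and 15.7% of all such genes. In replicate 2, 10 of 15 were longer and 5 shorter, beside 52.5% and 39.9%. In replicate 3, 31 of 55 were longer and 20 shorter, beside 48.9% and 45.2%. The collagens were longer in 11 of 12, 6 of 6 and 14 of 17 cases in replicates 1, 2 and 3, and their median ratios were 1.68, 3.47 and 1.35. The median ratio over all genes called in both libraries was 1.47, 1.08 and 1 in the 3 replicates. ADAMTS and ADAMTS-like genes were longer in 6 of 7, 0 of 1 and 5 of 13 cases, and integrins in 6 of 8, 3 of 5 and 7 of 14.

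**Figure D3:**
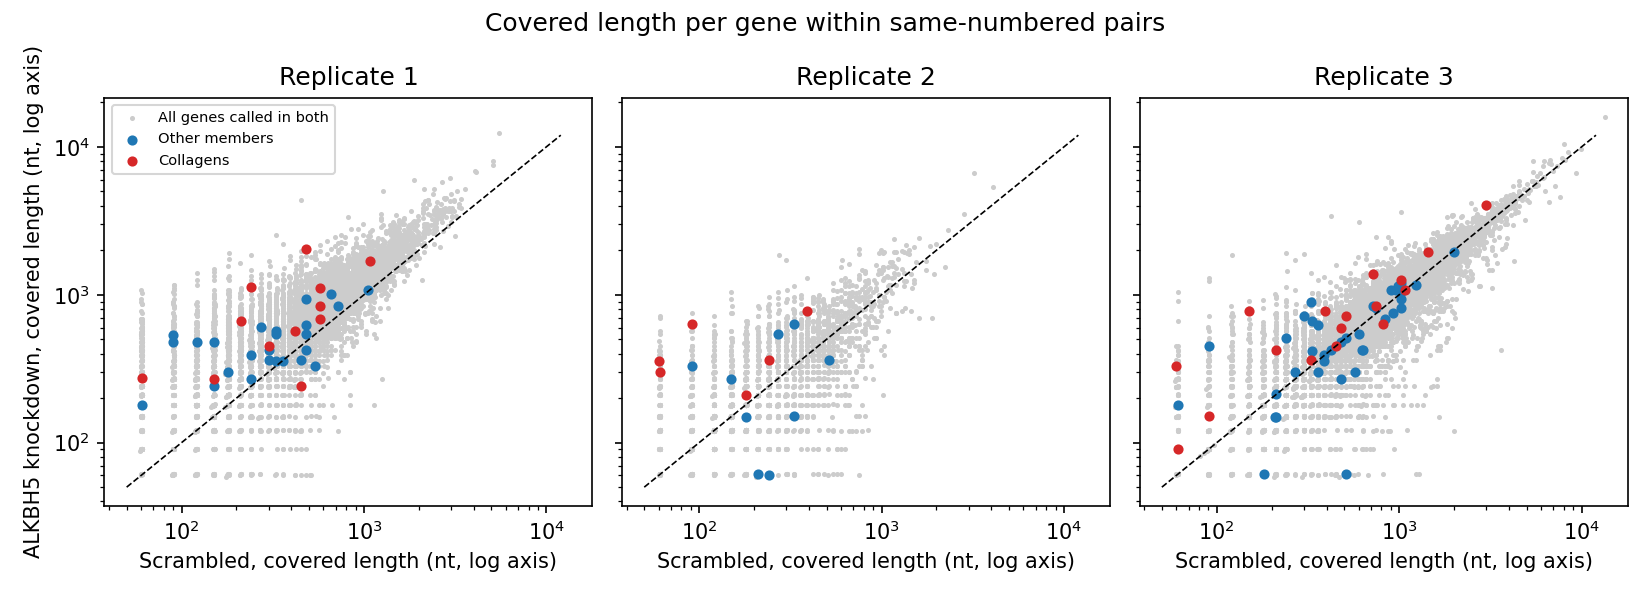
Covered length per gene in nucleotides in the knockdown library (vertical, log axis) against the scrambled library (horizontal, log axis) of each replicate number, for genes called in both, with collagens in red, the other matrix genes in blue and all genes in grey. Points above the dashed line of equality are longer in the knockdown, as 11 of 12, 6 of 6 and 14 of 17 collagens were in replicates 1, 2 and 3.

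Type VI collagen forms beaded filaments close to the cell surface from the chains of COL6A1, COL6A2 and COL6A3. COL6A3 (gene number 1293) had the most covered length of the 64 genes. Its peaks covered 2046, 301 and 4021 nt in knockdown replicates 1, 2 and 3, against 483, 61 and 3003 nt in scrambled replicates 1, 2 and 3. The knockdown library was longer in each pair, 4.24, 4.93 and 1.34 times, yet the groups overlapped because replicates 1 and 2 of the knockdown lay below scrambled replicate 3. The 4.93 rests on 1 peak of 61 nt in scrambled replicate 2, in a region where knockdown replicate 2 had no peak. The mean was 2123 ± 1861 nt in the knockdown and 1182 ± 1591 nt in the scrambled libraries (SD, n = 3 each, exact permutation test, p = 0.6). COL6A3 peaks lay in 7 regions between 238249240 and 238322790 on the minus strand of chromosome 2 (hg19). The 2 regions at 238249240 to 238250843 and 238285624 to 238290122 were called in 3 knockdown and 2 scrambled libraries each.

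COL6A2 (gene number 1292) covered 690, 631 and 1260 nt in knockdown replicates 1, 2 and 3, against 571, 91 and 1020 nt in the scrambled libraries. The gap was widest in replicate 2, 6.93 times, against 1.21 and 1.24 in replicates 1 and 3 (exact permutation test, p = 0.4). Its region at 47548879 to 47549657 on the plus strand of chromosome 21 (hg19) was called in all 6 libraries. Downstream, all 3 knockdown libraries but scrambled replicate 3 alone of the others called the region at 47552044 to 47552583, where the peak of scrambled replicate 3 covered 360 nt. In these 4 libraries the peak was listed a second time, at the same place to within 1 nt, without a gene number. COL6A1 covered 272, 0 and 781 nt in the knockdown and 61, 0 and 390 nt in the scrambled libraries.

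COL8A1 (gene number 1295), a short-chain network collagen of vessel walls and the cornea, had the next largest difference in means. It covered 1136, 359 and 1373 nt in knockdown replicates 1, 2 and 3, against 240, 60 and 718 nt in the scrambled libraries. The knockdown library was 4.73, 5.98 and 1.91 times as long, and the mean was 956 ± 530 nt in the knockdown and 339.3 ± 340.1 nt in the scrambled libraries (SD, n = 3 each, exact permutation test, p = 0.2). The 5.98 rests on 1 peak of 60 nt in scrambled replicate 2, the shortest peak length of the matrix genes. Only knockdown replicate 2 lay within the scrambled range. The region at 99513101 to 99513936 on the plus strand of chromosome 3 (hg19) was called in all 6 libraries. The peak there spanned 777, 299 and 776 nt in the knockdown and 240, 60 and 359 nt in the scrambled libraries. All 3 knockdown libraries and scrambled replicate 3 called the second region, at 99514563 to 99515159. Its best peak ranked at 78.0, 14.6 and 90.0 of 100 in the knockdown lists and at 28.7 in that scrambled list, on no common scale. Its partner chain gene COL8A2 had peaks in replicate 3 alone, with 777 nt in the knockdown and 150 nt in the scrambled library.

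COL18A1 (gene number 80781), whose C-terminal fragment is endostatin, covered 1704, 778 and 1943 nt in knockdown replicates 1, 2 and 3, against 1078, 389 and 1437 nt in the scrambled libraries. The ratios were 1.58, 2.00 and 1.35, and the groups overlapped (exact permutation test, p = 0.4). Its upstream region, at 46888319 to 46896334 on the plus strand of chromosome 21 (hg19), was called in 3 knockdown libraries and in scrambled replicates 1 and 3. The best peak of that region ranked at 92.4, 86.6 and 96.7 in the knockdown lists, against 58.8 and 57.2 in the scrambled lists that called it. The downstream region at 46932231 to 46933634 was called in all 6 libraries and ranked at 99.2, 97.9 and 99.1 in the knockdown, against 82.1, 84.4 and 83.8 in the scrambled lists. These ranks hold within each list, and their difference between lists was not tested.

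**Figure D4:**
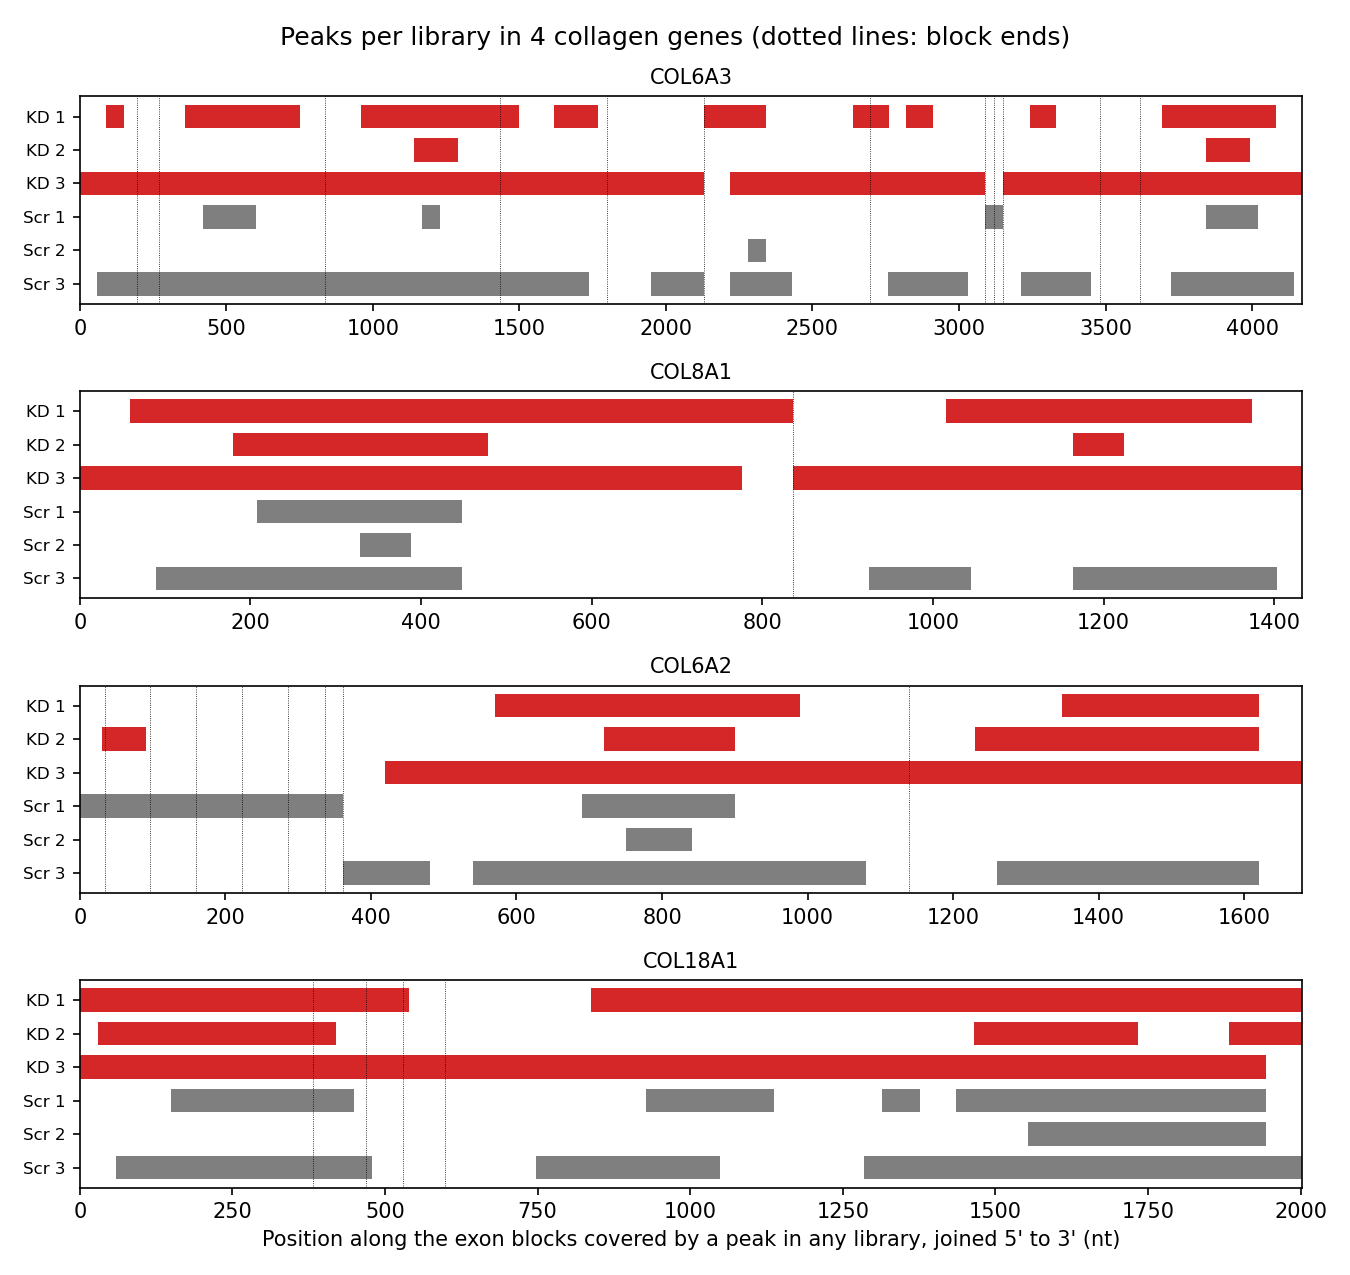
Peaks of each library (rows, knockdown in red above scrambled in grey) in COL6A3, COL8A1, COL6A2 and COL18A1, drawn along the exon blocks that had a peak in any library, joined 5′ to 3′ (horizontal axis, nucleotides), with dotted lines at block ends. The second part of COL8A1 is empty in scrambled replicates 1 and 2, and the last part of COL6A2 likewise.

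The other collagens that were longer in all pairs had smaller differences. COL13A1, a transmembrane collagen, covered 450, 360 and 600 nt in knockdown replicates 1, 2 and 3, against 300, 240 and 480 nt in the scrambled libraries. COL27A1, a fibrillar collagen of cartilage, covered 845, 151 and 842 nt in the knockdown, against 573, 0 and 751 nt. The COL27A1 coverage was spread over 6 regions, of which 1, at 116930376 to 116931335 on chromosome 9, was called in more than 2 libraries. COL5A1, which nucleates type I fibrils, covered 1111, 302 and 1081 nt in the knockdown and 572, 0 and 1082 nt in the scrambled libraries, a difference in replicates 1 and 2 but of 1 nt in replicate 3. COL12A1, which coats fibrils, covered 270, 211 and 450 nt in the knockdown and 151, 180 and 450 nt in the scrambled libraries.

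Type I collagen, the main protein of bone, carried little signal in the lists. COL1A1 covered 302, 0 and 420 nt in knockdown replicates 1, 2 and 3, against 0, 0 and 211 nt in the scrambled libraries, and COL1A2 had no peak. The basement membrane collagens COL4A1, COL4A2, COL4A5 and COL4A6 had at most 361 nt in any library. COL4A5 and COL2A1, the collagen of cartilage, had a single peak each, in scrambled replicate 3, of 151 and 91 nt.

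Of the laminins, LAMC1, the common gamma chain, covered the most, with 330, 60 and 1201 nt in knockdown replicates 1, 2 and 3, against 540, 240 and 1020 nt in the scrambled libraries. It was shorter in the knockdown of replicates 1 and 2 and longer in replicate 3 (exact permutation test, p = 0.9). LAMC3 covered 479, 0 and 629 nt in the knockdown and 121, 0 and 360 nt in the scrambled libraries, with the 2 peaks of replicate 1 in separate regions. LAMB2 covered 421, 0 and 691 nt in the knockdown, against 301, 0 and 0 nt, so its call in replicate 3 was a gain. LAMC3 and LAMB2 had no call in replicate 2, and no laminin kept 1 direction in all 3 pairs.

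Among integrins, the alpha chains ITGA3, a laminin receptor, and ITGA11, a collagen receptor of mesenchymal cells, were longer in each pair. ITGA3 covered 930, 540 and 1078 nt in knockdown replicates 1, 2 and 3, against 480, 270 and 899 nt in the scrambled libraries. Its ratios were 1.94, 2.00 and 1.20, with means of 849.3 ± 277.9 nt and 549.7 ± 320.2 nt (SD, n = 3 each, exact permutation test, p = 0.2). The ITGA3 region at 48166652 to 48167729 on the plus strand of chromosome 17 was called in all 6 libraries, and its peak in knockdown replicate 2 ranked at 99.8. ITGA11 covered 1017, 329 and 1075 nt in the knockdown, against 657, 91 and 956 nt.

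No other integrin was longer in the knockdown of all 3 pairs. ITGA5, the fibronectin receptor chain, covered 629, 271 and 809 nt in the knockdown and 480, 150 and 1019 nt in the scrambled libraries. ITGA6, which binds laminin, covered 420, 151 and 480 nt in the knockdown and 480, 330 and 480 nt in the scrambled libraries. ITGB3, a beta chain of the vitronectin receptor, covered 359, 61 and 389 nt in the knockdown and 359, 210 and 389 nt in the scrambled libraries. Lengths of ITGB3 were thus equal in replicates 1 and 3 and differed in replicate 2 alone. ITGB5 was called in 2 knockdown and 3 scrambled libraries, and its region at 124482034 to 124482451 on chromosome 3 was called in 1 knockdown and 3 scrambled libraries. The sole ITGA1 region was also listed for PELO, a gene that lies within ITGA1, so its peaks cannot be given to 1 of them.

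The best-ranked protease peak lay in MMP17, a membrane-anchored metalloproteinase. It covered 840, 630 and 930 nt in knockdown replicates 1, 2 and 3, against 720, 330 and 1021 nt in the scrambled libraries. Its region at 132334463 to 132336316 on the plus strand of chromosome 12 was called in all 6 libraries, ranking at 97.7, 95.7 and 99.7 in the knockdown and 98.4, 94.6 and 92.3 in the scrambled lists. MMP16, also membrane-bound, covered 569, 150 and 1139 nt in the knockdown and 329, 180 and 989 nt in the scrambled libraries. MMP14, which activates MMP2 at the cell surface, covered 481, 0 and 811 nt in the knockdown, against 90, 0 and 751 nt. MMP24 had 1 peak in each library of replicate 3 alone, at 2 different sites.

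ADAMTS genes were covered mostly in replicates 1 and 3, and ADAMTS12 alone was called in all 6 libraries. ADAMTS12 covered 542, 361 and 1052 nt in knockdown replicates 1, 2 and 3, against 331, 512 and 1023 nt in the scrambled libraries. ADAMTS15, which cuts proteoglycans such as versican, covered 1077, 0 and 1944 nt in the knockdown and 1048, 61 and 2004 nt in the scrambled libraries, nearly level within replicates 1 and 3. ADAMTS17 covered 361, 0 and 1173 nt in the knockdown and 301, 0 and 1234 nt in the scrambled libraries, with the 2 peaks of replicate 1 in separate regions. ADAMTS3, which trims procollagen, covered 601, 0 and 749 nt in the knockdown and 271, 0 and 930 nt in the scrambled libraries. ADAMTS1 stood out in size, with 538, 0 and 896 nt in the knockdown against 90, 0 and 329 nt in the scrambled libraries, and was chosen for mention after its values were seen.

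TIMPs had short peaks of at most 571 nt. TIMP2 covered 181, 0 and 662 nt in knockdown replicates 1, 2 and 3, against 61, 0 and 332 nt in the scrambled libraries. The knockdown and scrambled peaks of TIMP2 in replicate 1 lay in separate regions. TIMP3, which stays bound to the matrix, covered 271, 0 and 302 nt in the knockdown and 241, 0 and 571 nt in the scrambled libraries. TIMP4 covered 150 nt in the knockdown and 209 nt in the scrambled library of replicate 3 and had no peak in the other libraries.

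Counted by region, collagens held more than their part of the regions seen more often in the knockdown, with 29 of 54 against 53 of 136 regions in all. However, 14 of these 29 were called in 1 knockdown and 0 scrambled libraries. Of the 136 regions, 54 (39.7%) were called in more knockdown than scrambled libraries and 22 (16.2%) in fewer, beside 32.6% and 23.1% of all 21675 regions. Collagen regions made up 8 of the 22 called in fewer, each of them in 1 scrambled and 0 knockdown libraries. The 83 regions of the other families divided into 25 with more, 14 with fewer and 44 with equal numbers. All 6 libraries called 14 regions (10.3%, beside 12.7%), and exactly 1 library called 44 (32.4%, beside 28.9%), of which 22 were in collagens. None was called in all knockdown and no scrambled libraries (0.129% of all regions) or the reverse (0.00923%). The nearest to it were 2 regions called in 3 knockdown and 1 scrambled library, the downstream ones of COL6A2 and COL8A1 above. They were the only ones with at least 2 more knockdown than scrambled libraries (1.47%, beside 3.42% of all regions). Another 6, all in collagens, were called in 3 knockdown and 2 scrambled libraries, and the share of all regions with that pattern was not computed.

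The pairs contributed unequally to these counts. In replicate 2, 12 regions were gained and 5 lost (8.82% and 3.68%, beside 6.01% and 5.42% of all regions). All 12 gains were in collagens, with 1 loss. In replicate 1, 33 were gained and 14 lost (24.3% and 10.3%, beside 21.2% and 7.99%), of which 15 and 6 were in collagens. In replicate 3, 19 were gained and 13 lost (14% and 9.56%, beside 11.3% and 13.2%), of which 6 and 3 were in collagens. Collagens had 18 peaks in knockdown replicate 2 and 6 in scrambled replicate 2, and all other families together 11 and 13. Those other families covered 2.55 kb in knockdown replicate 2, against 2.56 kb in scrambled replicate 2, so the net difference of the 64 genes in that pair lay in collagens.

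**Figure D5:**
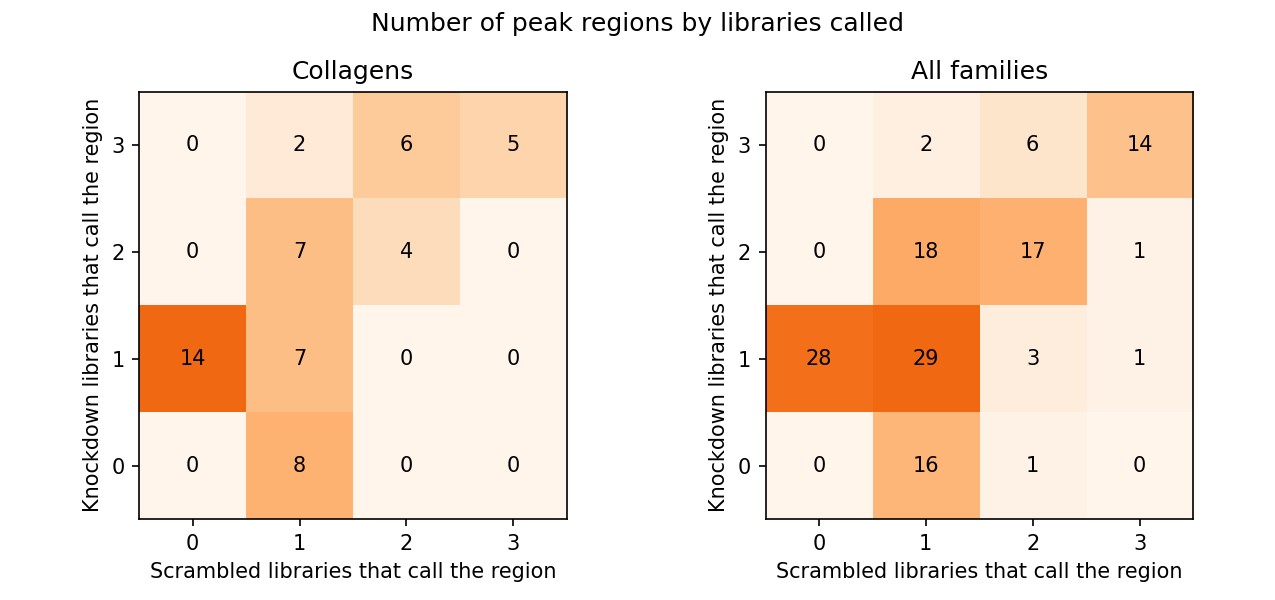
Number of peak regions by how many knockdown libraries (vertical) and scrambled libraries (horizontal) called them, for collagens (left, 53 regions) and for all 6 families (right, 136 regions). The corner of 3 knockdown and 0 scrambled libraries is empty in both, and the 6 regions called by 3 knockdown and 2 scrambled libraries are all in collagens. For the latter pattern the share of all regions was not computed.

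Genes that make or modify the matrix were taken from further lists. The 3 genes named from each list are its extremes, with the largest difference in libraries called, then in mean covered length. Of 26 genes for collagen modification, folding and crosslinking, 20 had a peak, with 7 called in more and 2 in fewer knockdown libraries, beside 26.1% and 17.1% of all genes with a peak. Among the 20, 6 were longer in all 3 pairs and 1 shorter, beside 13% and 1.42%. Scaled by list length, 3 were higher and 1 lower in all pairs, beside 7.33% and 6.76%. All 6 libraries called 7 of the 20, and of all genes so called 34.1% were longer in all pairs before scaling. SERPINH1, the collagen chaperone HSP47, covered 572, 121 and 1353 nt in knockdown replicates 1, 2 and 3, against 181, 0 and 902 nt in the scrambled libraries. LOXL1, a crosslinking oxidase, covered 539, 362 and 959 nt in the knockdown, against 479, 0 and 748 nt. FKBP10, a prolyl isomerase of collagen folding, covered 925, 0 and 745 nt in the knockdown and 180, 61 and 626 nt in the scrambled libraries.

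Of 28 matrix glycoproteins and proteoglycans 19 had a peak, with 8 called in more and 2 in fewer knockdown libraries, beside 26.1% and 17.1% of all genes, and 8 longer in all 3 pairs, beside 13%. Scaled by list length, 3 were higher in all pairs, beside 7.33%. All 6 libraries called 7 of the 19, and of all genes so called 34.1% were longer in all pairs before scaling. VCAN, the proteoglycan versican, covered 4449, 936 and 6875 nt in the knockdown, against 2769, 0 and 7018 nt in the scrambled libraries, the largest covered length in these lists. SDC2, a syndecan, had 180, 0 and 61 nt in the knockdown and none in the scrambled libraries. NID2, a basement membrane linker, had 359, 0 and 598 nt in the knockdown and 0, 0 and 210 nt in the scrambled libraries.

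Of 27 focal adhesion genes 20 had a peak, with 2 called in more and 2 in fewer knockdown libraries, beside 26.1% and 17.1% of all genes, and 6 longer in all 3 pairs, beside 13%. Scaled by list length, 4 were higher in all pairs, beside 7.33%. All 6 libraries called 9 of the 20, and of all genes so called 34.1% were longer in all pairs before scaling. PTK2, the focal adhesion kinase, covered 421, 61 and 750 nt in the knockdown and 241, 0 and 630 nt in the scrambled libraries. TNS2, a tensin, covered 61, 0 and 0 nt in the knockdown and 242, 0 and 360 nt in the scrambled libraries. PARVB, a parvin, covered 0, 0 and 239 nt in the knockdown and 179, 0 and 269 nt in the scrambled libraries.

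Of 20 other proteases and inhibitors 11 had a peak, with 4 called in more and 0 in fewer knockdown libraries, beside 26.1% and 17.1% of all genes, and 1 longer in all 3 pairs, beside 13%. Scaled by list length, 0 were higher and 2 lower in all pairs, beside 7.33% and 6.76%. The lysosomal protease CTSL covered 384, 0 and 237 nt in the knockdown and had no peak in the scrambled libraries. ADAM10, a membrane sheddase, covered 272, 0 and 451 nt in the knockdown and 0, 0 and 451 nt in the scrambled libraries. ADAM19 covered 120, 0 and 181 nt in the knockdown and 0, 0 and 181 nt in the scrambled libraries. The median of the knockdown minus scrambled difference in mean covered length was 100.2 nt for the collagen modification genes, 80.3 nt for the glycoproteins, 114.8 nt for the focal adhesion genes and 40 nt for the other proteases. It was 124.7 nt for the 20 collagens, 45.2 nt for the 64 genes and 40 nt for all genes with a peak.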

How the data were processed

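Peak lists of 6 m6A immunoprecipitates were analysed, and the 6 inputs were not used here. Per the submitters' processing notes the authors used CASAVA 1.8.2, TopHat2 and SAMtools on hg19. No source used here gives the peak caller or its threshold. The score that the authors deposited per peak was treated as a p-value, since it never exceeded 0.011, and served only to rank peaks within a list. Lists were made per library. Libraries were grouped by their titles.

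Gene numbers were named through a RefSeq table of GRCh38.p14, where 10500 of 10536 matched. Coordinates are those of the lists, counted from 1. No genome of the lists' build was used here, so no sequence is shown. Covered length counted overlapping peaks of a gene once. Regions joined peaks of all lists of 1 strand whose exon blocks shared 1 bp or more. The exact permutation test and the sign-flip test were written in Python 3.11.15 and tested on simulated data. The replicate numbers pair the libraries, since the protocol ties each to an RNA type and antibody, and deviations of same-numbered libraries correlated over genes (0.32, 0.47 and 0.40).

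The genes, lists and tests were chosen with earlier results of these data known. Named genes were those that differed by at least 2 libraries, the 10 with most peaks, the 4 longest of each family, the 6 largest differences per direction shared by all pairs, and 3 per further list. Those 3 had the largest difference in libraries called, in either direction, then in mean covered length. Other genes were named after their values were seen. The values of 1 gene that the rule names are not reported here. Alternatives were a stricter score, equal list sizes, each library left out, at least 2 peaks per gene, peaks extended by 100 bp, and the replicate block.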

Additional observations from a re-analysis of the deposited data

How the results depend on the processing

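The peak lists hold no depth, and a missing peak may be a missed one. With the best-scored 50% of each list, 6 of the genes were called in all 6 libraries in place of 15. In the same setting 1 region was called in all knockdown and no scrambled libraries, 1 region the reverse, 1 gene was longer in every knockdown than in any scrambled library, and 1 was shorter, where each count had been 0. With at least 2 peaks per gene, 0 genes were called in all 6. With the replicate block, 8 genes (12.5%, beside 13% of all genes) in place of 0 were longer in the knockdown of all 3 pairs. As without the block, 0 were shorter, beside 1.42% of all genes. The block was run for these covered-length counts alone. Scaled by list length, 4 in place of 8 genes were longer in all pairs (6.25%, beside 7.33% of all genes). This alternative was chosen after the data were seen, like all those for the pairs and collagens. For the other alternatives here and below, no share of all genes or regions was computed, so their counts have no background. Equal list sizes moved no count they were run on by over 1.5 times. With peaks extended by 100 bp, run on the region counts alone, the regions called in all libraries of 1 condition and none of the other stayed at 0.

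Leaving out 1 library at a time gave 12 to 41 genes called in a larger share of knockdown libraries and 5 to 34 in a smaller share, since 2 libraries against 3 leave few ties. It gave 15 to 18 genes called in all libraries, 0 to 2 regions called only in the knockdown, 0 to 1 only in the scrambled libraries, 0 to 12 genes longer throughout (12 without knockdown replicate 2, 5 without scrambled replicate 3) and 0 to 1 shorter. Leaving out both libraries of a number gave 9 to 25 genes longer in the remaining pairs (25 without replicate 2). The mean log2 ratio of collagen covered length was 0.73 to 1.33 without 1 of the pairs, and 0.96 without COL6A3.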
